A study of Mus musculus with 2 samples.

Results

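At the Alpl locus of cultured mouse stromal cells, 26 of the 21418 listed histone mark events fell in a window of 90 kb on chromosome 4 (mm9), and all of them had fewer reads in Dicer knockout (KO) than in wild-type (WT) cells. They comprised 3 H3K4me3 and 23 H3K36me3 events, and of all events listed for these marks 88.2% and 66.2% were lower in KO. Neither H3K27ac list held an event there. The window ran from 17.2 kb below the lowest of these events to 18.1 kb above the highest, and all events of the 6 lists inside it were taken. It was proposed with the differences in these lists already known, so they are given as a description and none was tested. The sample titles call the cells fibroblasts, and the growth protocol calls them mesenchymal stromal cells (MSCs). KO cells were a monoclonal immortalized line without Dicer, the ribonuclease that cuts microRNA precursors, and WT cells were a line of the same kind with Dicer, both grown in Alpha-MEM with fetal bovine serum. How Dicer was removed is not given in the sources used here, and a monoclonal line derives from 1 cell, so clone and genotype cannot be told apart. The labelled samples are 1 KO and 1 WT library of H3K27ac, and each list holds a single value per genotype at each event, so no replicate error can be given.

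Alpl encodes tissue-nonspecific alkaline phosphatase, an enzyme on the outer cell surface that breaks down pyrophosphate, an inhibitor of mineral formation. It is used as a marker of mesenchymal stromal cells and of early osteoblasts. The gene has alternative promoters, each with a noncoding first exon. H3K4me3 marks promoters of active genes, H3K27ac marks active promoters and enhancers, and H3K36me3 is laid down along gene bodies during transcription, usually with more of it towards the 3′ end.

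RefSeq annotates 2 Alpl promoters on the minus strand of chromosome 4 in GRCm38.p6, with starts 29.9 kb apart. Their sequences are shown because H3K4me3 is a promoter mark and the promoters differ in base composition. Each line is the 250 bases before the start, searched on both strands for the GC box hexamer GGGCGG and for the TATA hexamer TATAAA, with matches in capitals.
Upstream promoter, chr4:137796385-137796634, minus strand: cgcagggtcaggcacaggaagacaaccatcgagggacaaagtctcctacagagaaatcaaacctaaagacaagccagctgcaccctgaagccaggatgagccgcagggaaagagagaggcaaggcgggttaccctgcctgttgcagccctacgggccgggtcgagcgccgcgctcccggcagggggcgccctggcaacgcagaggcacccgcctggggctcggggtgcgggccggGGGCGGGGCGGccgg
Downstream promoter, chr4:137766476-137766725, minus strand: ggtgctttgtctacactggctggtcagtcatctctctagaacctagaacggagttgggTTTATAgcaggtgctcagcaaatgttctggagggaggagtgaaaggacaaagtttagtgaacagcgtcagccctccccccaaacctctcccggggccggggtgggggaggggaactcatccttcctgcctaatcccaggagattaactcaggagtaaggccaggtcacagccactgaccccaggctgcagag
The upstream promoter was 68.4% G and C with 20 CpG dinucleotides, and 17.9% of the 32851 RefSeq promoters of this length had at least as many. It held 2 overlapping matches to GGGCGG, a motif present in 32.7% of all promoters. The downstream promoter was 56.0% G and C with 4 CpG dinucleotides, against a median of 6 over all promoters. It held 1 match to TATAAA, on the opposite strand and closer to the far end of the 250 bases than to the start. This hexamer was present, at any position, in 12.4% of promoters. The motif TGTGGT, which RUNX factors bind, matched neither sequence and 14.0% of all promoters. These coordinates are not those of the event lists, which are in mm9, and no event was assigned to either start.

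The H3K4me3 events lay at the high-position end of the locus, which for a gene on the minus strand is the side of its start. At 137351915, KO had 67.1 scaled reads against 973.8 reads in WT, which is 14.5-fold lower in KO (95% exact interval 12.2 to 17.4). Scaled reads are the KO reads multiplied by a factor from the authors' software, and how that factor was set is not stated. At 137351035 the values were 15.3 scaled reads in KO and 538.7 reads in WT, 35.2-fold lower in KO (24.9 to 52.1). At 137350215 they were 16.6 in KO and 584.5 in WT, also 35.2-fold lower (25.1 to 50.8). The event at the edge was thus the one with the most reads in both genotypes and the smallest fold, and its interval did not overlap those of the other two, which lay 0.88 and 1.70 kb further in. Together the 3 events had 99.0 scaled reads in KO against 2097 reads in WT, 21.2-fold lower in KO (18.4 to 24.5). In units of each genotype's own background reads on chromosome 4 the same events were 10.8-fold lower in KO. Background here means the expected reads listed by the authors' software, 129.9 in KO and 116.9 in WT, and was not measured separately. Intervals cover counting error only and treat reads as independent. GEM, the software that made this list, shares reads between neighbouring events. The values of these 3 events are therefore not independent, and the difference between them was not tested.

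H3K36me3 was lower in KO at 23 events over 53.7 kb on the low-position side of the promoter mark. KO had 0 to 25.5 scaled reads per event (median 6.8), and WT had 47 to 282 reads (median 101.8). No event had more scaled reads in KO than the lowest event had in WT. Before scaling, KO had 0 to 15 reads per event, and 10 of the 23 events had 3 reads or fewer, so the folds of single events are imprecise. Summed over the 23 events, KO had 191.1 scaled reads, from about 113 unscaled, against 2765.5 reads in WT, 14.5-fold lower in KO (11.9 to 17.6). All but 1 of these events lay below every H3K4me3 event in position. The exception, at 137350869, lay 166 bases from an H3K4me3 event and had 8.5 scaled reads in KO against 94 reads in WT, 11.1-fold lower in KO (4.58 to 34.9).

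**Figure D1:**
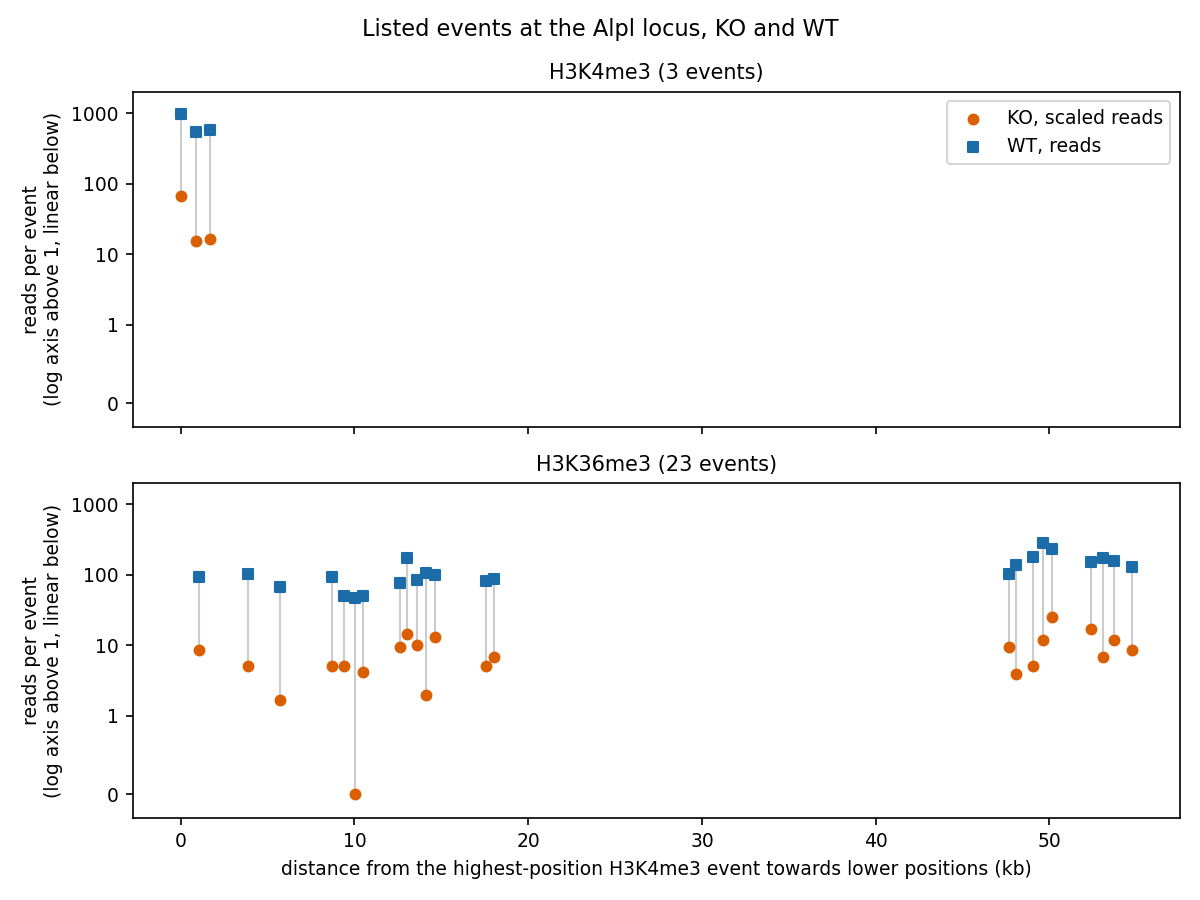
Reads per event at the Alpl locus against distance in kb from the H3K4me3 event at the highest position, with KO scaled reads as circles and WT reads as squares, joined by a grey line for each event. H3K4me3 sits within 1.7 kb of the origin, and H3K36me3 forms groups at 1.05 to 18.0 kb and 47.7 to 54.8 kb with KO below WT at all 23 events.

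The H3K36me3 events fell into a near group and a far group, with 29.6 kb between them in which no event of any mark was listed. The near group held 14 events over 17.0 kb, from 137333868 to 137350869. There KO had 0 to 14.4 scaled reads per event (median 5.1) and WT had 47 to 172.7 (median 86.05). The far group held 9 events over 7.10 kb, from 137297154 to 137304254, with 3.9 to 25.5 scaled reads in KO (median 9.6) and 101.8 to 282 reads in WT (median 157). Both genotypes thus had more reads per event in the far group: the far mean was 1.72 times the near mean in KO (11.1 and 6.49 scaled reads) and 2.0 times in WT (173 and 86.4 reads). H3K36me3 was 15.5-fold lower in KO in the far group (12.0 to 20.5) and 13.3-fold lower in the near group (10.1 to 17.7). These intervals overlap, and the difference between the groups was not tested. The lists hold only events that differ, so the stretch between the groups may carry the mark at levels that did not pass.

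Within the far group, the event at 137302305 had the most reads of the locus and the largest −log10 q of the whole WT-higher H3K36me3 list, 63.4. It had 11.9 scaled reads in KO, or 7 before scaling, against 282 in WT. Its neighbour at 137301750 had the highest KO value, 25.5 scaled reads, against 237 in WT, 9.29-fold lower in KO (5.53 to 16.9). The event on the other side, at 137302880, had 5.1 scaled reads in KO against 182 in WT, 35.7-fold lower (12.0 to 175). Events less than 1.2 kb apart thus differed in their point estimates while their intervals overlapped.

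In the near group the extremes of the locus lay side by side. At 137337787, KO had 2.0 scaled reads, about 1 before scaling, against 106 in WT, the largest fold at 53.0, with an interval from 11.0 to 2490. The adjacent event at 137337270 had the smallest fold: 13.2 scaled reads in KO against 98.8 in WT, 7.48-fold lower (3.56 to 17.4). GEM, which made this list, shares reads between neighbouring events, so values of adjacent events are not independent. At 137341870, KO had 0 reads against 47 in WT. This event was at least 7.22-fold lower in KO by the lower limit of its interval, and the value with KO set to a floor of 3 reads was 9.23. The event with the smallest −log10 q, 2.48, at 137346189, had 1 read in KO (1.7 scaled) against 67 in WT, 39.4-fold lower (6.85 to 1582). It was the member closest to the authors' threshold of 2.

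**Figure D2:**
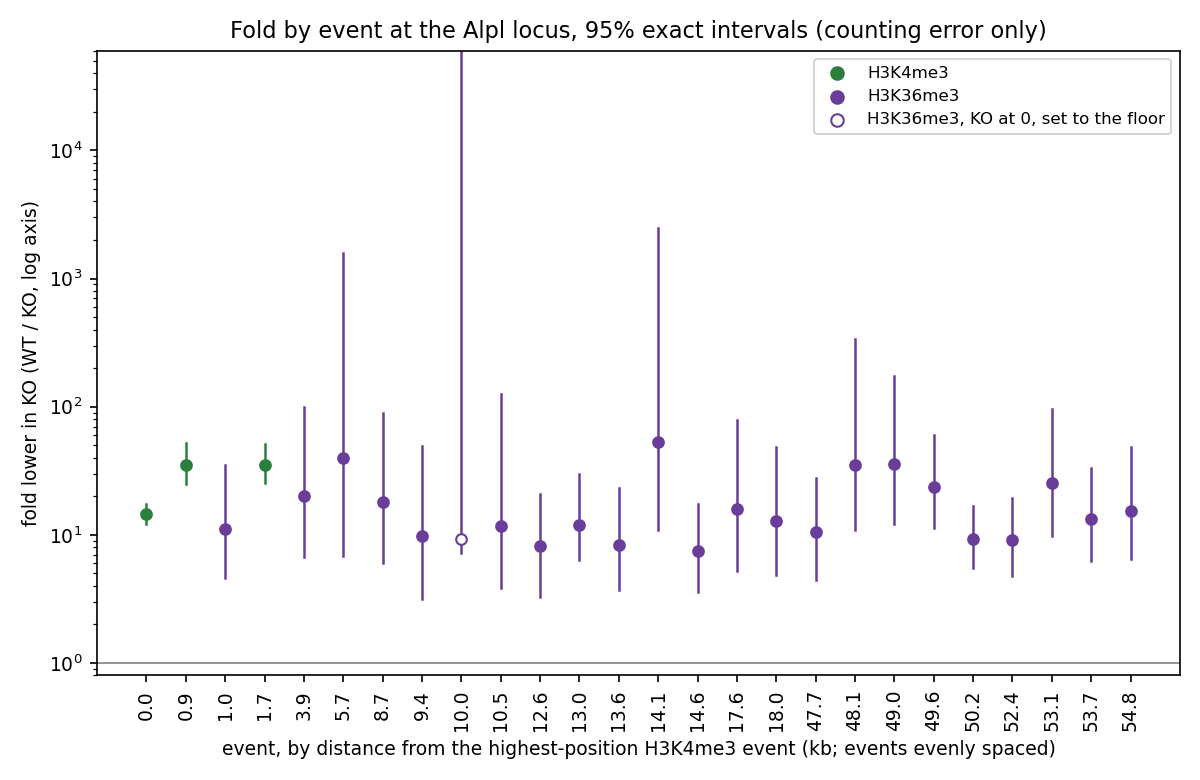
Fold lower in KO (WT reads over KO scaled reads, log axis) for each of the 26 events in order of distance from the highest-position H3K4me3 event, with 95% exact intervals as bars. Green points are H3K4me3 and purple points H3K36me3, and the open point at 10.0 kb had 0 reads in KO and is drawn at the floor, its bar running to the top of the axis because it has no upper limit. The intervals of the 23 H3K36me3 events overlap widely, while the H3K4me3 event at 0 kb lies below the other H3K4me3 events.

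In bins of 10 kb, H3K36me3 was 13.9-fold lower in KO (9.44 to 21.5) and 16.8-fold lower (11.9 to 24.5) in the bins that start at 137290000 and 137300000. It was 11.6-fold lower (8.28 to 16.7) and 19.3-fold lower (11.4 to 39.2) in those that start at 137330000 and 137340000. The bin that starts at 137350000 held 1 H3K36me3 event, 11.1-fold lower in KO (4.58 to 34.9). The intervals of these 5 bins overlapped one another, and differences between bins were not tested.

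Set beside each other at the scale of the lists, H3K4me3 was 21.2-fold and H3K36me3 14.5-fold lower in KO, and their intervals (18.4 to 24.5 and 11.9 to 17.6) did not overlap. This order depended on the scale, since on unscaled reads H3K4me3 was 9.75-fold and H3K36me3 24.6-fold lower in KO. In units of own background H3K4me3 was 10.8-fold lower in KO, and H3K36me3 has no value on that scale.

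H3K27ac gave no listed event in either direction within the window, and widening it by 20 kb on each side added none. The nearest H3K27ac event higher in WT, at 137220697, had 135.6 scaled reads in KO and 317 reads in WT, 2.34-fold lower in KO. It lay 131 kb below the edge H3K4me3 event, and 109 bases from the nearest H3K4me3 event outside the window, at 137220806. The nearest H3K27ac event higher in KO lay 548 kb away, at 137899931. The lists hold only events that differed past the authors' threshold, so they do not show whether H3K27ac was absent at Alpl or present at similar levels in both genotypes. On chromosome 4 the smallest listed H3K27ac folds were 1.30 among events higher in KO and 1.59 among events higher in WT. The fewest reads of the higher genotype were 221.2 and 223, so a larger fold at a weaker site need not have been listed.

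Outside the window the nearest H3K4me3 events higher in WT were those at 137220806, with 61.3 scaled reads in KO and 409 reads in WT, and at 137417833, with 228.9 in KO and 442.1 in WT. The nearest H3K36me3 events higher in WT, at 137028907 and 137444388, were 2.75-fold and 2.64-fold lower in KO, below the smallest H3K36me3 fold at Alpl, 7.48. In the RefSeq gene order of GRCm38.p6, the protein-coding neighbours are Rap1gap, an activator of Rap1 GTP hydrolysis, on the low-position side, and Ece1, the endothelin-converting enzyme, on the other. Without an mm9 annotation these outer events were not assigned to genes.

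The shares of 88.2% and 66.2% rest on 6280 H3K4me3 and 5050 H3K36me3 events, and on chromosome 4 events lower in KO made up 94.8% and 87.0%. For H3K27ac, with 0 events at Alpl, the share was 17.5% of all listed events and 23.1% on chromosome 4. The H3K36me3 events higher in WT came from GEM and those higher in KO from different software, GPS. Their counts, and so the H3K36me3 shares, are not like for like between directions. Differences of at least 10-fold were reached by 3 of 3 H3K4me3 events at Alpl, against 8.95% of the 5542 H3K4me3 events higher in WT and 7.47% of those on chromosome 4. This count was 2 of 3 on other scales, where the event at 137351915 was 7.43-fold lower in KO in units of own background and 6.68-fold lower on unscaled reads. Differences of at least 10-fold were reached by 16 of 23 H3K36me3 events at Alpl, counting only values at or above 10. The shares were 11.8% of the 3341 H3K36me3 events higher in WT and 18.4% of those on chromosome 4. With 1 read added, the events at 137304254, 137341403 and 137350869 fell under 10-fold, to 9.10, 8.58 and 9.32. The event with 0 reads in KO, at 137341870, then rose from its floor value to 28.3-fold. On unscaled reads all 23 Alpl events were above 10-fold, the lowest 12.7-fold at 137337270. The list shares were not recomputed in either setting. Because the window was chosen on these values, the shares only place it within the lists. The H3K36me3 events of Alpl lay above the upper quartile of their list (5.83-fold) in 23 of 23 cases, and 19 of 23 had more WT reads than its median of 73. Of the 100 H3K36me3 events with the largest −log10 q in that list, 9 were at Alpl, 3 of them among the first 10. The H3K4me3 events ranked 43, 183 and 266 of 5542 by the same measure, and 2 of 3 had more WT reads than the list's median of 558.

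**Figure D3:**
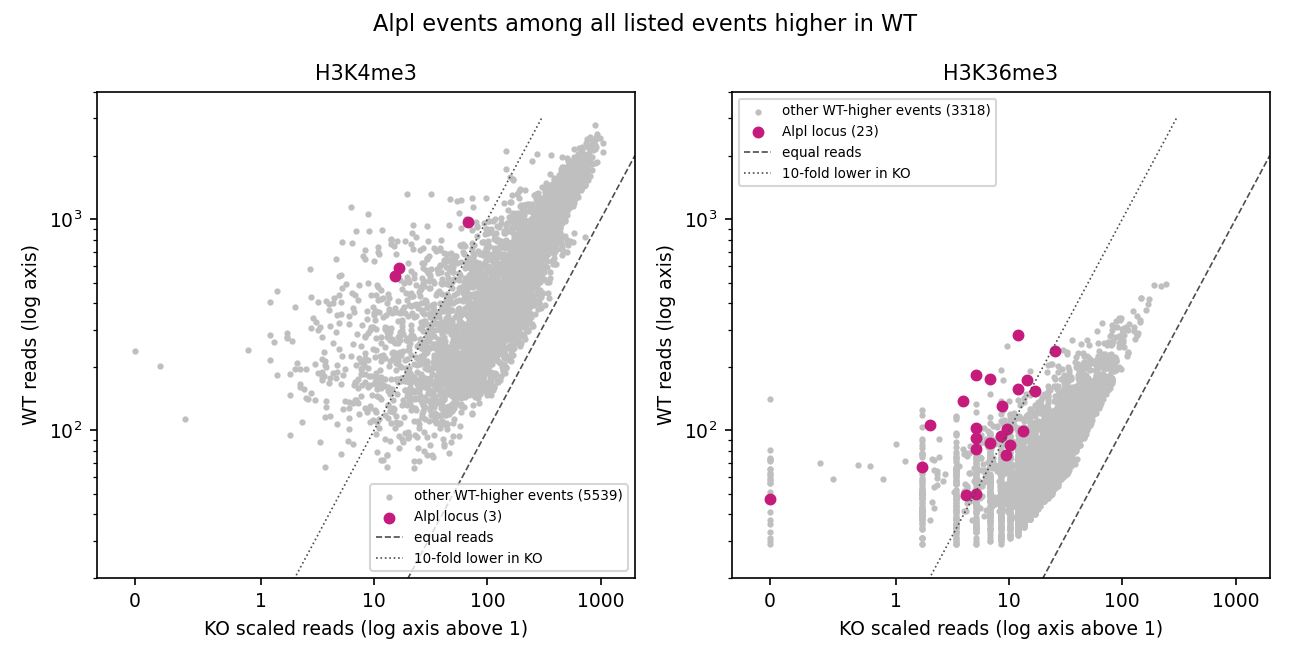
KO scaled reads (x axis, log above 1) against WT reads (y axis, log) for all listed events higher in WT, H3K4me3 on the left and H3K36me3 on the right, with Alpl events in magenta, the dashed line at equal reads and the dotted line at 10-fold lower in KO. All 3 H3K4me3 events and 16 of 23 H3K36me3 events lie above the dotted line, counting the event with 0 reads in KO as under 10-fold at its floor.

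Merged within 5 kb, 175 H3K36me3 regions of the series had at least 5 events, with KO above WT in 50 and below it in 125. Among those 125, the far group of Alpl ranked 4 and the near group 7 by fold, against a median of 4.37-fold and a largest value of 28.9-fold. By number of events the near group ranked 3, tied with another region of 14 events. For H3K4me3, the Alpl events ranked 23 of 958 regions of at least 3 events higher in WT, whose median was 2.85-fold. Counted in tiles of 90 kb laid out from the edges of the Alpl window, 1134 tiles held an H3K36me3 event higher in WT, with a median of 2. Of these, 2 tiles, Alpl included, held 23 or more. By this layout the Alpl events lie whole within their tile, while other runs of events can be cut at tile edges. The count of 2 therefore depends on the layout and may be too low. The lack of listed H3K27ac was common: of 540 tiles with both H3K4me3 and H3K36me3 higher in WT, 396 (73.3%) held no H3K27ac event of either direction and 104 (19.3%) held one higher in WT.

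**Figure D4:**
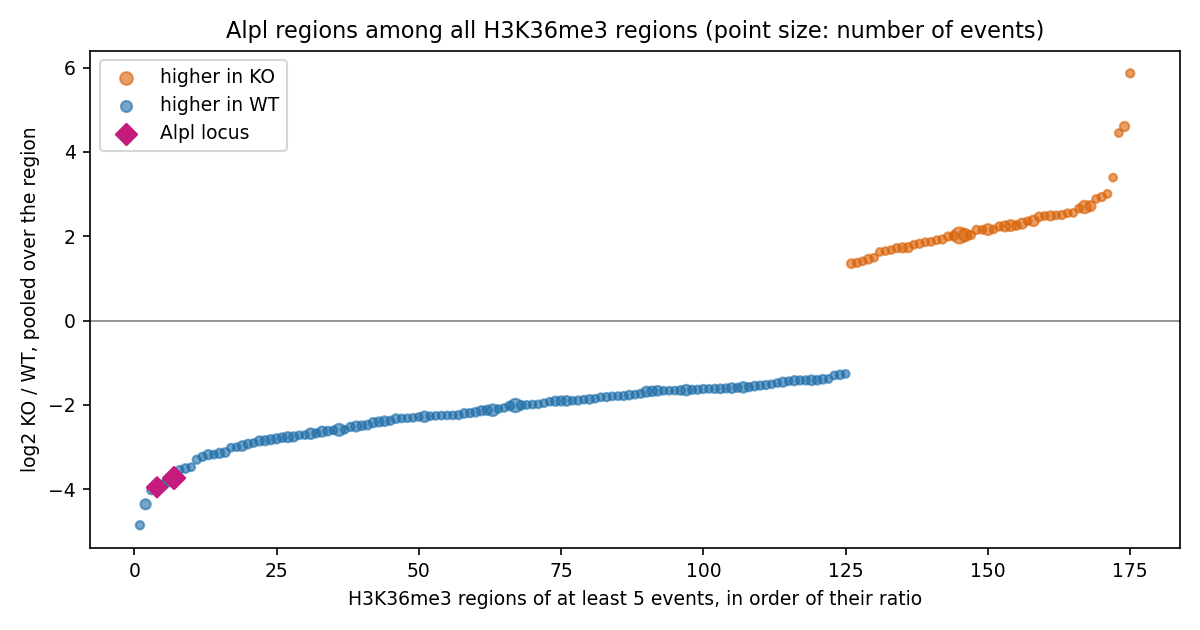
Pooled log2 ratio of KO over WT for the 175 H3K36me3 regions of at least 5 events, in order of the ratio, with point size growing with the number of events. The Alpl regions (diamonds), at -3.96 and -3.74, lie near the low end among the 125 regions higher in WT.

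The regions closest in pooled H3K36me3 ratio to the near group of Alpl were 5 regions higher in WT on chromosomes 9, X, 6, 15 and 2. The closest, chr9:50862730-50874365, held 12 events with 62.9 scaled reads in KO against 880.5 reads in WT, 14.0-fold lower in KO (10.1 to 20.04). It had 0 H3K4me3 events within 5 kb and 1 H3K27ac event, higher in WT. At chrX:53989051-53993403, 9 events had 39.1 scaled reads in KO against 585 in WT, 15.0-fold lower (9.89 to 23.8), beside 3 H3K4me3 events and 2 H3K27ac events higher in WT. The other regions of the 5, chr6:118679549-118684504, chr15:102757586-102760438 and chr2:54324967-54330491, were 11.6-fold, 11.4-fold and 11.1-fold lower in KO. Of these, the one on chromosome 15 had 3 H3K4me3 and 5 H3K27ac events higher in WT nearby, and the others had none of either mark within 5 kb. Alpl differed from those on X and 15 in having listed H3K4me3 without listed H3K27ac, which is a description of 1 value per genotype and was not tested.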

How the data were processed

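The labels describe H3K27ac ChIP-seq of KO and WT cells, aligned to mm9, and TopHat 1.4 is named without its role, per the submitters' processing notes. The 6 deposited lists hold GPS or GEM events per the file headers and names, with 1 genotype as immunoprecipitate and the other as control. Both lists of H3K27ac pool replicates per the file names. For H3K4me3 and H3K36me3 pooling is not stated, and the labels used here hold no sample of these marks. The names of the H3K27ac and H3K4me3 lists carry the words dnase and WT, which those of H3K36me3 lack. The role of this element is not stated, so the lists of different marks may not cover like sites. The WT-higher lists of H3K4me3 and H3K36me3 came from GEM and the KO-higher H3K36me3 list from GPS. The authors' estimated count is the reads of the higher genotype, and the deposited control signal is the other genotype's scaled reads. The deposited fold ratio has a place-holder where the control is 0, and was recomputed here. The deposited −log10 q values start at 2 and are limited at 999. Library totals are unknown.

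From the lists, the scale factor of each control was recovered as the step between 0.3 and 3 that made most values whole multiples (within 0.06). KO had been multiplied by 1.70 in the WT-higher H3K36me3 list (92.4% of values whole) and by 0.461 in that of H3K4me3 (54.2% whole, so less certain). On 6 simulated lists the largest error was 0.0005, but all simulated control values were whole multiples of the factor. The simulation therefore cannot show how well a factor is recovered where many values are not whole, as for H3K4me3. Folds are WT reads over KO scaled reads, pooled folds use sums, and intervals are exact conditional binomial (Clopper-Pearson) at 95% from unscaled reads rounded to whole numbers. Where KO had 0 reads, a floor of 3 KO reads per event was used. Computation used SciPy 1.17.1, pandas 2.3.3 and NumPy 2.4.6 under Python 3.11.15, with figures from matplotlib 3.10.9. The locus, the named events and the rules for them were chosen with earlier results of these data known: all events of a mark with few, and otherwise those with the largest and smallest fold, −log10 q or reads, plus the neighbours, the single-read and 0-read events and the lowest −log10 q, which were chosen after their values were seen. Like regions are the 5 H3K36me3 regions of at least 5 events with the closest pooled ratio. Region ranks and tiles were also chosen after seeing the data. Other osteogenic and mineralization genes were not analysed here, for want of an mm9 annotation. Promoter sequences are RefSeq's, GRCm38.p6, and both Alpl entries matched by symbol. No test between genotypes was run.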

Additional observations from a re-analysis of the deposited data

How the results depend on the processing

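All 26 events stayed lower in KO on unscaled reads, with 1 read added and with the factor from the other list, as did the 3 H3K4me3 events in units of own background, a scale not available for H3K36me3. Adding 1 read or taking the factor from the other list of the mark left every event's fold within its interval. On unscaled reads the pooled fold was 9.75 for H3K4me3 and 24.6 for H3K36me3, against 21.2 and 14.5. Own background reads gave 10.8 for H3K4me3, and the median of its event folds was 35.2. The 23 H3K36me3 events became 15 at a −log10 q of at least 10, 9 when merged within 1 kb and 2 within 5 kb, and the 3 H3K4me3 events became 1 within either distance. The share of the WT-higher list at or above the pooled fold of the locus was 4.11% for H3K4me3 (4.84% on chromosome 4, 1.65% among events with at least the locus's median reads) and 5.96% for H3K36me3 (10.6% and 3.21%). No paired analysis was possible because replicates are not separated in any list, so none could be left out either. KO reads, 0 to 15 per H3K36me3 event, limit the precision.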
